A study of Mus musculus with 6 samples.

Results

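Sparc, Serpine2, Cst3, Olfml3 and Ecscr were taken by name from the deposited count table as homeostatic microglia genes grouped as secreted and matrix-modulating. The name of the group does not mean that each product acts on the extracellular matrix. All 5 had a row in the table, out of 11881 genes listed, and all 5 were among the 10832 genes that passed the filter on low counts. The table covers microglia, the resident macrophages of the brain, sorted from the hippocampus of male mice as CD11b-positive, CD45-low cells, with the mice aged postnatal day 17 to 21. Of the 6 libraries, 3 came from wild-type (WT) mice and 3 from mice labelled Mll5+/-, heterozygous for a disruption of Mll5 (now Kmt2e, a gene of the MLL family). No cell-type-specific driver, treatment or strain is named in the sources used here, nor is the part of Mll5 that was disrupted. Every sample carries an animal number of its own, and a library stands for 1 mouse here. The genes were chosen with their levels and the contrast of the genotypes known, so both are given here as a description, without a test.

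SPARC, also called osteonectin, is a secreted calcium-binding glycoprotein that binds collagens and loosens the contact of cells with their matrix, and in the brain it is known to counteract its relative SPARCL1 (hevin) in synapse formation. Serpine2 encodes protease nexin-1, a secreted inhibitor of thrombin and of the plasminogen activators, and Cst3 encodes cystatin C, a secreted inhibitor of cysteine cathepsins. Olfml3 encodes a secreted olfactomedin-domain glycoprotein that binds BMP1 and chordin, proteins of bone morphogenetic protein (BMP) signalling. Ecscr, named for endothelial cells, encodes a cell-surface protein with a membrane-spanning part, so that "secreted" describes the other 4 genes and not this one. In the mouse brain, microglia are known as a main source of several of these transcripts during postnatal life.

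The starts of 4 of these genes, Sparc, Serpine2, Cst3 and Olfml3, were set side by side, as these had a window among those used. Ecscr had none. Whether the sequence of a window goes with the contrast of the genotypes was not tested. The windows are from RefSeq (build GRCm38.p6), run from 250 bases before to 50 bases after the annotated gene start, and are read 5′ to 3′ on the gene's strand. Capitals mark a GC box core (GGGCGG, the core that SP1-type factors bind) or a PU.1-type ETS core (GAGGAA), on either strand. The TATA box (TATAAA), searched in the same way, had no match in these 4 windows.
Sparc (chr11:55420031-55420330, - strand): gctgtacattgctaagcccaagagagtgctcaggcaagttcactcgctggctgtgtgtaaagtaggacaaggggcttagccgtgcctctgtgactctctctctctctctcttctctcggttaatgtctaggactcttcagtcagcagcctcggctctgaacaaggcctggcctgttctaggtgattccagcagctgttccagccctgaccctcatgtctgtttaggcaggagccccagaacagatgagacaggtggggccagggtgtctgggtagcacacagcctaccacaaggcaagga
Serpine2 (chr1:79858616-79858915, - strand): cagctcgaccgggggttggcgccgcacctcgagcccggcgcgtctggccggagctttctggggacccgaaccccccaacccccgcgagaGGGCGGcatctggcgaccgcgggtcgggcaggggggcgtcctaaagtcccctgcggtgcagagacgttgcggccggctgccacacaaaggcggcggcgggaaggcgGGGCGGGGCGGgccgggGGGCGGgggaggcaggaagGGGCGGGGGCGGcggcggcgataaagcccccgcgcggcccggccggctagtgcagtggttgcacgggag
Cst3 (chr2:148875463-148875762, - strand): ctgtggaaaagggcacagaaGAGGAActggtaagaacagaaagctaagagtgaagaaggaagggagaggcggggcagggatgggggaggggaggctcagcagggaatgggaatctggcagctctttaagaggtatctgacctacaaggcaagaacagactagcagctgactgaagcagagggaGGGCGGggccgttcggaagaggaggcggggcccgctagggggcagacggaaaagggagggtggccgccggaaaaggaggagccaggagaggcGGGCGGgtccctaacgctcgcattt
Olfml3 (chr3:103737952-103738251, - strand): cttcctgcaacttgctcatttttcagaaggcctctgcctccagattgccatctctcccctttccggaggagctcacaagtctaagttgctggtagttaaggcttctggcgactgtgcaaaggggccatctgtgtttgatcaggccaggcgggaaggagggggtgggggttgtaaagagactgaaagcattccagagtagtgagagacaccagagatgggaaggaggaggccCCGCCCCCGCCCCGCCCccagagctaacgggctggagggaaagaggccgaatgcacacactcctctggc
The Sparc window held none of the 3 motifs and 4 CG dinucleotides, against a median of 7 over 32851 windows of the same length. The Serpine2 window held 6 GC box cores, some of them overlapping, and 41 CG dinucleotides, more than 96.5% of all windows. Cst3 had 2 GC box cores, 1 PU.1-type core and 13 CG dinucleotides, and Olfml3 had 3 GC box cores and 8 CG dinucleotides. At least 1 GC box core was found in 35.7% of all windows, the PU.1-type core in 28.3% and the TATA box in 13.6%. G plus C made up 55.3% of the window in Sparc and 77.7% in Serpine2, against a median of 52.7%. A match is a description of the sequence and not evidence of a bound factor.

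The 6 libraries held between 21075570 and 29730400 counts. All 14 microglia markers had counts in all 6 libraries, and their levels summed to between 10613 and 15003 CPM (counts scaled to a common library size, with TMM factors) under the WT label and between 8373 and 9584 CPM under the Mll5+/- label. Most of that gap lay in P2ry12, the purinergic receptor of resting microglia, at 4269, 1366 and 5499 CPM under the WT label and 1115, 1232 and 1087 CPM under the Mll5+/- label, so that WT replicate 2 lay close to the latter. Gpr34, named after its values were seen, was the other microglia marker lower without overlap (1197 ± 99.2 and 758 ± 159 CPM, SD, n = 3 each). Tmem119 was higher without overlap. Over all tested genes, 4.64% were lower without overlap and 4.68% higher. Kmt2e itself, which should be at a lower level in heterozygous mice if the disruption removes its transcript, had 480, 378 and 688 CPM under the WT label and 648, 298 and 513 CPM under the Mll5+/- label. The gene count therefore did not separate the genotypes, and the genotype of a library is given as its label. Replicates 1 to 3 follow the order of the samples and carry no other meaning.

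Sparc was one of the most abundant transcripts of these cells. Of all 11881 genes it had rank 2 by counts in all 3 WT libraries and in Mll5+/- replicate 1, behind Actb (cytoplasmic beta-actin), and rank 4 in Mll5+/- replicates 2 and 3. In Mll5+/- replicate 2, Cd53 and Srsf2 also had more counts, and in replicate 3 it was Arglu1 and mt-Nd4. Sparc lies on chromosome 11 from 55285326 to 55314009 (mm39).

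The level of Sparc was 12187, 12745 and 10666 CPM under the WT label and 10103, 6920.3 and 8394 CPM under the Mll5+/- label. All 3 libraries labelled Mll5+/- lay below all 3 labelled WT, with a gap of 5.28% between Mll5+/- replicate 1 and the lowest library under the WT label. The means were 11866 ± 1076 and 8473 ± 1593 CPM (SD, n = 3 each), a difference of -28.6%, and the log2 fold change (Mll5+/- minus WT, here and below) was -0.49 (SE 0.153). Read as a share of all counts, Sparc took 1.22%, 1.28% and 1.03% under the WT label and 1.01%, 0.703% and 0.843% under the Mll5+/- label. In RNA from a sorted population, fewer cells of a kind and less RNA per cell cannot be told apart.

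Serpine2, on chromosome 1 from 79771914 to 79838897 (mm39), was the other gene whose genotypes did not overlap. Its level was 436, 413 and 439 CPM under the WT label and 308, 380.4 and 274 CPM under the Mll5+/- label. The libraries labelled WT lay close together, with a coefficient of variation of 3.28%, while those labelled Mll5+/- spread by 16.95%. The means were 429.6 ± 14.1 and 321 ± 54.4 CPM (SD, n = 3 each), a difference of -25.4%, and the log2 fold change was -0.42 (SE 0.184). By counts, its rank ran from 376 to 420 under the WT label and from 453 to 685 under the Mll5+/- label.

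**Figure D1:**
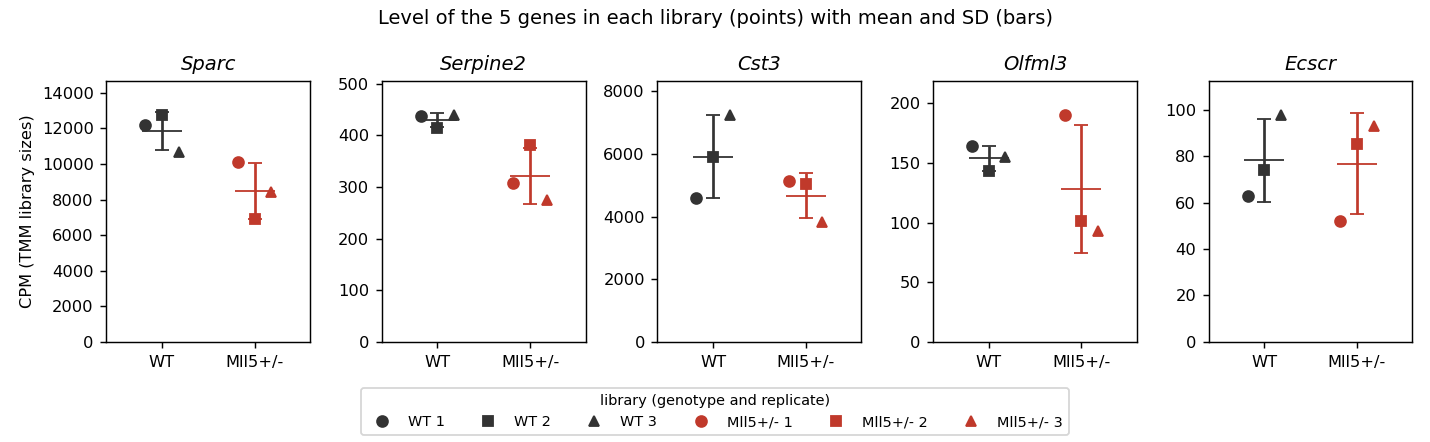
CPM of Sparc, Serpine2, Cst3, Olfml3 and Ecscr (1 panel each, with its own vertical axis from 0) in the 3 libraries labelled WT (black) and the 3 labelled Mll5+/- (red); dashes and bars give the mean and SD, and a marker shape is a replicate number, which does not pair mice. Sparc and Serpine2 lie lower in all 3 libraries labelled Mll5+/-, and the other 3 genes overlap.

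Cst3, the cathepsin inhibitor, was abundant as well. It lies on chromosome 2 from 148713642 to 148717612 (mm39) and ranked between 7 and 23 by counts. Its level was 4600.2, 5895 and 7241 CPM under the WT label and 5123, 5054 and 3830.2 CPM under the Mll5+/- label. The genotypes overlapped, since WT replicate 1 lay below Mll5+/- replicates 1 and 2. All 3 libraries labelled Mll5+/- were nonetheless below the WT mean of 5912 ± 1321 CPM, with a mean of 4669 ± 727 CPM (SD, n = 3 each). The log2 fold change was -0.34 (SE 0.189). It was -0.51 without WT replicate 1, -0.17 without WT replicate 3 and -0.23 without Mll5+/- replicate 3.

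Olfml3, on chromosome 3 from 103638981 to 103645317 (mm39), had an even level under the WT label and a split one under the Mll5+/- label. Its level was 164, 143 and 155 CPM under the WT label and 190.2, 102 and 93.0 CPM under the Mll5+/- label. Mll5+/- replicate 1 was the highest of all 6 libraries, and Mll5+/- replicates 2 and 3 were the lowest. The coefficient of variation was 6.88% under the WT label and 41.9% under the Mll5+/- label. The log2 fold change of -0.26 (SE 0.303) rested on which library was counted. It was -0.68 (SE 0.257) without Mll5+/- replicate 1, -0.13 without replicate 2 and -0.090 without replicate 3 of the same genotype.

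Ecscr, on chromosome 18 from 35846139 to 35855409 (mm39), showed no such lean. Its level was 62.8, 74.0 and 97.7 CPM under the WT label and 52.1, 85.2 and 93.1 CPM under the Mll5+/- label. The lowest library was labelled Mll5+/- and the highest WT, and the means were 78.2 ± 17.8 and 76.8 ± 21.7 CPM (SD, n = 3 each). The log2 fold change was -0.03 (SE 0.319), and its sign turned when 1 library was left out, to 0.16 without WT replicate 3 and to 0.17 without Mll5+/- replicate 1. In GENCODE M21, 1 other gene overlaps Ecscr on the opposite strand. The strand setting of the counting is not given, so reads of the pair could not be told apart. The intervals of Sparc, Serpine2, Cst3 and Olfml3 overlapped no other gene in that annotation.

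In all, 2 of the 5 genes had levels in the libraries labelled Mll5+/- below every library labelled WT. Over all tested genes the share was 4.64%. None of the 5 lay above every library labelled WT (4.68% of all tested genes did), and all 5 log2 fold changes were below 0 (48.2% of all tested genes). The genes were chosen on this contrast, so nothing is read from these counts. The count of 2 was also found with DESeq2 size factors and with total counts in place of the TMM sizes (library sizes scaled by the trimmed mean of M-values). It was 3 without WT replicate 1, when Cst3 was added, and 3 without Mll5+/- replicate 1, when Olfml3 was added. With fewer libraries non-overlap is met more easily. The share of all tested genes was not computed for these 2 settings, so the counts of 3 have no background beside them. The 5 genes together took 1.75%, 1.93% and 1.80% of the counts under the WT label and 1.58%, 1.27% and 1.27% under the Mll5+/- label, most of it Sparc and Cst3.

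**Figure D2:**
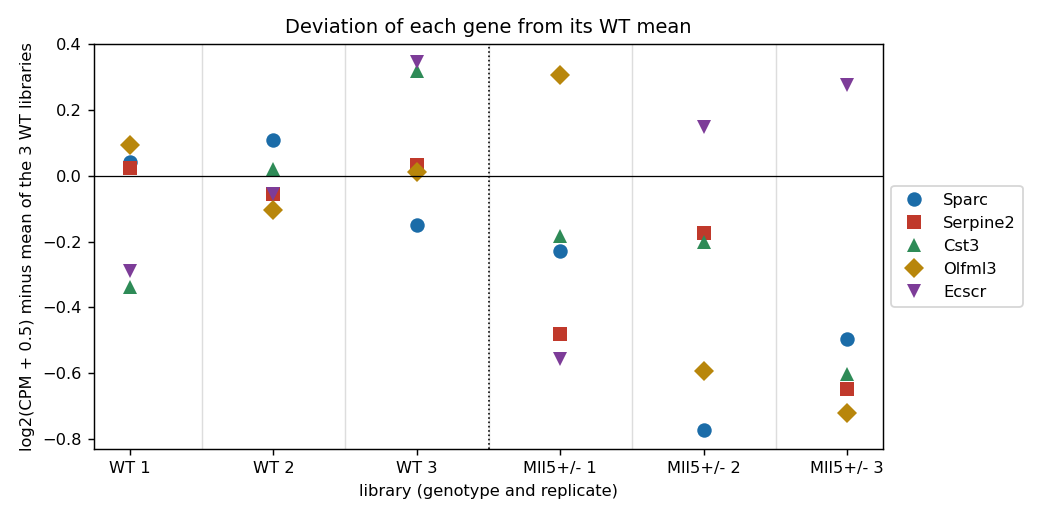
Deviation of each of the 5 genes from its mean over the 3 libraries labelled WT, in units of log2(CPM + 0.5), for each library (horizontal axis). In Mll5+/- replicate 3, 4 genes lie between -0.50 and -0.72 while Ecscr lies at 0.27; in Mll5+/- replicate 1, Olfml3 lies at 0.31 while Serpine2 and Ecscr lie at -0.48 and -0.56.

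The genes did not move as 1 group from library to library. In Mll5+/- replicate 2, Sparc was at its lowest, 0.77 below its WT mean on the log2(CPM + 0.5) scale, while Serpine2 was 0.17 below. In Mll5+/- replicate 1 the order was turned, with Sparc 0.23 below and Serpine2 0.48 below. The ratio of Sparc to Serpine2 counts, which does not depend on the library size, was 27.9, 30.8 and 24.3 under the WT label and 32.8, 18.2 and 30.6 under the Mll5+/- label. The ratio of Olfml3 to Ecscr counts ran from 1.58 to 2.61 under the WT label, and was 3.65, 1.19 and 0.999 under the Mll5+/- label. Both ratios spread more widely among the libraries labelled Mll5+/- than among those labelled WT.

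The spread between libraries of 1 genotype was small for Serpine2 beside genes of a similar level. Its SD within genotypes was 0.173 on the log2 scale, and 78.9% of the 762 tested genes within 2-fold of its mean CPM had a larger one (their median was 0.266). For Ecscr the SD was 0.389 and 53.6% of 2332 such genes had a larger one, and for Olfml3 it was 0.402 and 38.3% of 1661. At the level of Sparc and Cst3 few genes could be set beside them. Sparc had an SD of 0.215, the rank 4 from the lowest among 12 genes, and Cst3 an SD of 0.286, the rank 27 among 36. The level of Serpine2 was therefore one of the more even ones. Olfml3 and Cst3 had SDs above the median of the genes beside them (0.344 and 0.243), for Cst3 among only 36 genes.

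Counts grow with transcript length, so levels of different genes were compared per kilobase of the longest protein-coding transcript in GENCODE M21, which 11599 of the 11881 listed genes matched by symbol. On that scale Cst3, with a short transcript, stood first with a mean of 6152 CPM per kilobase over the 6 libraries, and Sparc followed with 4422. Cst3 was above Sparc in 6 of 6 libraries, though in WT replicate 1 by only 5349 against 5299 CPM per kilobase. Serpine2 had 169.8, Ecscr 69.5 and Olfml3 25.8 CPM per kilobase on average. Each was below the gene named before it in 6 of 6 libraries.

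By counts per kilobase, Cst3 ranked between 2 and 4 and Sparc between 4 and 10 of the genes with a length. Serpine2 ranked between 181 and 356, Ecscr between 566 and 1081 and Olfml3 between 1461 and 2773. The place of Olfml3 depended on its length. With the RefSeq gene span of 2.61 kilobases in place of the GENCODE length of 5.46, it had 54.1 CPM per kilobase, from 35.7 to 72.9 over the libraries. Ecscr, kept at its transcript length, ran from 46.8 to 87.7 and was above it in 4 of 6 libraries. A gene span is not a transcript length, so this is not a like-for-like comparison, and the order of these genes was not settled.

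**Figure D3:**
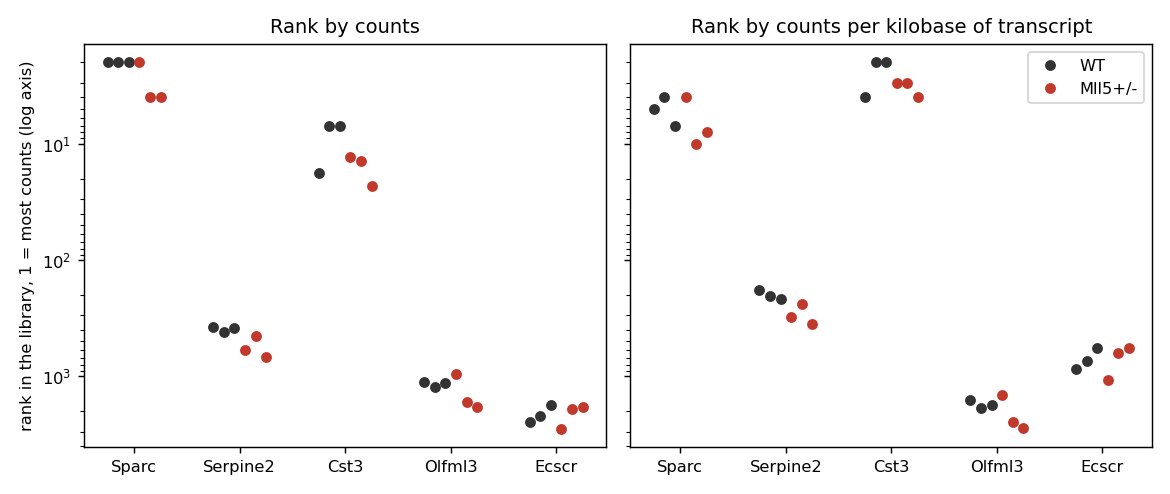
Rank of the 5 genes in each library (log axis, 1 at the top is the gene with most counts), by counts (left) and by counts per kilobase of transcript (right), black for libraries labelled WT and red for those labelled Mll5+/-. Per kilobase, Cst3 moves to ranks 2 to 4, ahead of Sparc, and Ecscr moves ahead of Olfml3.

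The sort for CD11b-positive, CD45-low cells should remove endothelial, mural, glial and nerve cells, and the markers of such cells were read as a check. Of 20 endothelial markers, 9 had a row in the table, 5 of them had a library without a count, Cdh5 and Flt1 among them, and their levels summed to between 54.8 and 67.8 CPM under the WT label and between 48.3 and 90.8 CPM under the Mll5+/- label. The most abundant were Eng at 23.2 and 23.6 CPM, Slc2a1 at 16.3 and 27.1 CPM and Pecam1 at 7.27 and 13.1 CPM (mean under the WT label first). Slc2a1 was the 1 of 5 tested endothelial markers without overlap, higher under the Mll5+/- label, where 4.68% of all tested genes were. Per kilobase, the 9 markers summed to between 13.3 and 26.6 CPM, and Ecscr alone was above that sum in 6 of 6 libraries. On the same scale Ecscr was above the sum of the border macrophage markers given below in 4 of 6 libraries and above that of the astrocyte markers in 0 of 6. Slc1a3 led the astrocyte sum, with a mean of 85.7 CPM per kilobase, and Sparcl1 was next with 6.36. Of 17 mural and fibroblast markers, 2 had a row, Acta2 and Tagln, which summed to at most 0.616 CPM under the WT label and 2.76 CPM under the Mll5+/- label.

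Of 18 astrocyte markers 12 had a row, and these summed to between 448 and 615 CPM under the WT label and between 272 and 581 CPM under the Mll5+/- label. Slc1a3, the glutamate transporter of astrocytes, was the most abundant at 391 ± 101 and 323 ± 119.9 CPM (SD, n = 3 each), followed by Slc1a2 at 38.3 and 51.4 CPM and by Sparcl1, which is also a relative of Sparc. Aqp4, Aldoc, Clu and Slc4a4 each had a library without a count. Of the 12, 8 log2 fold changes were negative and 4 positive, and none passed the test. Lower without overlap were 3 genes (Gja1, Plpp3 and Clu, named after their values were seen), where 4.64% of all tested genes were. Gja1, the gap junction gene of astrocytes, had 24.9 ± 3.24 and 3.99 ± 2.51 CPM (SD, n = 3 each).

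Markers of border-associated macrophages, the macrophages of the meninges and vessels, had a higher sum in every library labelled Mll5+/-, while each marker alone overlapped and none passed the test. Of 10 markers 6 had a row, and these summed to between 265 and 328 CPM under the WT label and between 369 and 692 CPM under the Mll5+/- label, led by Stab1 and Mrc1. Lyve1, Cd163 and Ms4a7 each had a library without a count. Markers of oligodendrocytes and their progenitors had a lower sum in every library labelled Mll5+/-, and here each tested marker alone overlapped. Of 13 markers 7 had a row, and these summed to between 155 and 186 CPM under the WT label and between 99.9 and 137 CPM under the Mll5+/- label. Cnp and Mag, genes of the myelin sheath, had 72.4 and 28.6 CPM under the WT label and 75.1 and 25.6 CPM under the Mll5+/- label. The part of these cells in the levels of Sparc and Serpine2 was not tested.

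Neuron, monocyte and choroid plexus markers overlapped between the genotypes in their sums. Of 12 neuron markers 5 had a row (40.4 to 65.2 CPM under the WT label and 53.4 to 93.1 CPM under the Mll5+/- label), led by Prox1, Snap25 and Sox11. Of 11 monocyte and neutrophil markers 7 had a row (199 to 258 CPM and 223 to 278 CPM), led by Csf3r, Ccr2 and S100a9. Of the choroid plexus and ependyma markers 1 had a row, Ttr (20.6 to 101 CPM and 0 to 122 CPM), and of the lymphocyte and erythrocyte markers 0 did.

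The relatives and partners of the 5 genes were then read from the fit over all 10832 tested genes. No gene passed an adjusted p of 0.05 in edgeR's quasi-likelihood test (0% called), in either direction. At an unadjusted p of 0.05, 147 genes were higher (1.36%) and 165 lower (1.52%) in the libraries labelled Mll5+/-. DESeq2 called 18 of these 10832 genes, 8 higher and 10 lower, and limma-voom with sample weights 0. The median log2 fold change of all tested genes was 0.02.

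Of 11 other genes listed as relatives of the SPARC family, close or distant, 3 had a row in the deposited table and 2 were tested, with 0 passing. Sparcl1, the synapse-promoting relative that SPARC counteracts, had 20.5 ± 3.51 and 14.6 ± 14.4 CPM (SD, n = 3 each; libraries labelled WT first, here and below), and its log2 fold change was -0.49 (SE 0.794). Spock1, a proteoglycan of the same family, had 1.04 and 1.86 CPM, and Fstl5 had under 1 CPM and was not tested. Per kilobase of transcript, Sparcl1 had a mean of 6.36 CPM against 4422 for Sparc.

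Of 12 receptors that bind SPARC or its matrix partners, 10 were tested and 0 passed, with 4 negative and 6 positive log2 fold changes and a median of 0.05, which ran from -0.15 without Mll5+/- replicate 2 to 0.20 without WT replicate 3. Itgb1, the common integrin beta subunit, had 389 ± 187 and 405 ± 60.4 CPM (SD, n = 3 each). Stab1, a scavenger receptor that takes up SPARC, had 201 ± 54.9 and 327 ± 163.6 CPM (SD, n = 3 each), with a log2 fold change of 0.70 (SE 0.387) and overlapping libraries. Itga6, a laminin-binding integrin subunit, had 242 ± 28.5 and 219 ± 41.4 CPM (SD, n = 3 each).

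Of 22 other serpin genes 6 had a row, all 6 were tested and 0 passed, and summed they had between 13.5 and 78.3 CPM. Serpinb9, an inhibitor of granzyme B, had 21.9 ± 13.9 and 10.1 ± 11.5 CPM, Serpinc1 (antithrombin) 17.5 ± 4.08 and 12.8 ± 21.3 CPM, and Serpinf1 8.82 ± 5.33 and 12.3 ± 6.99 CPM (SD, n = 3 each). Their median log2 fold change was -0.64, with SEs of the named genes from 0.749 to 1.81, and it was 0.29 without WT replicate 2 and -1.86 without Mll5+/- replicate 2. For each of the 3 named genes the SE was larger than the log2 fold change.

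Of 18 genes of the thrombin and plasminogen activator system, in which SERPINE2 acts, 8 had a row, 6 were tested and 0 passed, with a median of 0.41. Plgrkt, a plasminogen receptor, had 124 ± 33.1 and 121 ± 26.8 CPM. Furin, a convertase that activates secreted precursors, had 145 ± 20.8 and 64.8 ± 104 CPM, and Plau (urokinase) had 16.2 ± 9.06 and 21.1 ± 0.611 CPM (SD, n = 3 each). The SD of Furin in the libraries labelled Mll5+/- exceeded its mean, and the log2 fold change was -1.16 (SE 1.62).

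Of 18 other cystatin genes 2 had a row, Cstb at 9.13 ± 2.41 and 11.2 ± 2.82 CPM and Cst7, a gene raised in disease-associated microglia, at 1.152 ± 1.07 and 3.20 ± 2.81 CPM (SD, n = 3 each). Both were tested, and 0 passed. Of 11 cysteine proteases that cystatins bind, 10 were tested and 0 passed, with a median of -0.01.

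Ctss (cathepsin S), the most abundant of them, had 5065 ± 352 and 4525 ± 756 CPM, a log2 fold change of -0.16 (SE 0.1497). Lgmn (legumain) had 1191 ± 107 and 1226 ± 43.1 CPM, and Ctsb (cathepsin B) 534 ± 67.5 and 528 ± 35.8 CPM (SD, n = 3 each). Ctsz, which was named after its values were seen, was the 1 gene of the list without overlap, at 492 ± 6.39 and 545 ± 22.7 CPM (SD, n = 3 each).

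Of 12 other olfactomedin-domain genes, 5 were tested and 0 passed, with 4 negative log2 fold changes and a median of -0.12, which was -1.04 without Mll5+/- replicate 3. The 3 most abundant were Adgrl2, Adgrl1 and Olfml2b. Adgrl2, a latrophilin, had 44.4, 30.9 and 55.3 CPM under the WT label and 5.996, 12.2 and 31.4 CPM under the Mll5+/- label, with a log2 fold change of -1.40 (SE 0.605). The highest library labelled Mll5+/- lay just above the lowest labelled WT. Adgrl1 had 22.9 ± 4.28 and 22.8 ± 21.2 CPM, and Olfml2b, the relative nearest in name to Olfml3, 6.65 ± 4.03 and 6.11 ± 4.75 CPM (SD, n = 3 each).

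Of 26 genes listed around the BMP pathway, which OLFML3 touches through BMP1 and chordin, 11 were tested and 0 passed. They had 7 negative and 4 positive log2 fold changes. The median was -0.13, and it was -0.33 without Mll5+/- replicate 1 and -0.24 without Mll5+/- replicate 3. Chrd, the chordin gene, had no row in the deposited table, and Bmp1 had 9.34 ± 10.8 and 2.12 ± 2.34 CPM (SD, n = 3 each). Bmp2k, a kinase first found as induced by BMP2, had 5565 ± 363 and 5491 ± 609 CPM. Bmpr2, the type II receptor, had 459 ± 74.0 and 419 ± 32.9 CPM, and Id2, a target gene of the pathway, 123 ± 42.5 and 104 ± 33.8 CPM (SD, n = 3 each). Acvr2b, which was named after its values were seen, was the 1 gene of the list without overlap, at 49.8 ± 4.47 and 29.2 ± 12.4 CPM (SD, n = 3 each).

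Of 69 matrix components 23 had a row, 19 were tested and 0 passed, with 10 negative and 9 positive log2 fold changes and a median of -0.01, which was 0.54 without WT replicate 3. Col27a1, a fibrillar collagen gene, was by far the most abundant at 431 ± 57.2 and 459 ± 81.8 CPM. Nid2, a basement membrane nidogen, had 17.9 ± 14.3 and 32.5 ± 2.53 CPM, and Srgn, the granule proteoglycan of blood cells, 20.1 ± 12.9 and 23.9 ± 18.7 CPM (SD, n = 3 each). The 23 components summed to at most 699.7 CPM in any library, while Sparc alone had at least 6920.3 CPM.

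Of 60 matrix proteases, their inhibitors and matrix enzymes, 27 were tested and 0 passed, with 19 negative and 8 positive log2 fold changes and a median of -0.20. The membrane sheddases led the list, Adam10 at 3429 ± 339 and 3062 ± 158 CPM and Adam17 at 731 ± 138 and 650.0 ± 35.2 CPM (SD, n = 3 each). Timp2, an inhibitor of metalloproteases, had 192 ± 34.4 and 171 ± 24.1 CPM (SD, n = 3 each). In all 3 the libraries overlapped. Adamts1 and Timp4, named after their values were seen, were the tested genes of the list without overlap, both at low levels. Adamts1, a secreted protease gene, had 0.376, 0 and 0 CPM under the WT label and 1.54, 0.913 and 24.1 CPM under the Mll5+/- label. Its unadjusted p was 0.0227 and its adjusted p 0.9995 in edgeR's quasi-likelihood test. Timp4, another inhibitor gene, had 1.38, 2.19 and 9.58 CPM under the WT label and 1.03, 0 and 0 CPM under the Mll5+/- label.

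Other secreted products of microglia had 24 tested genes of 26, with 0 passing, 16 negative and 8 positive log2 fold changes and a median of -0.09, which was -0.20 without WT replicate 1, -0.19 without Mll5+/- replicate 2 and 0.02 without WT replicate 3. Among the most abundant, Ctsd and C1qc overlapped between the genotypes. Ctsd (cathepsin D) had 1621 ± 230 and 1505 ± 242 CPM, and C1qc, a chain of complement C1q, 1538 ± 358 and 1517 ± 202 CPM (SD, n = 3 each). Ccl9, a chemokine gene named after its values were seen, was the 1 gene of the list lower without overlap, at 127 ± 18.1 and 63.8 ± 21.7 CPM (SD, n = 3 each), and Lyz2 was higher without overlap. Over the 11 lists, 3 of 122 tested genes (2.46%) were lower without overlap, Ccl9, Acvr2b and Timp4, where 4.64% of all tested genes were. As many, Ctsz, Adamts1 and Lyz2, were higher without overlap, where 4.68% of all tested genes were.

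**Figure D4:**
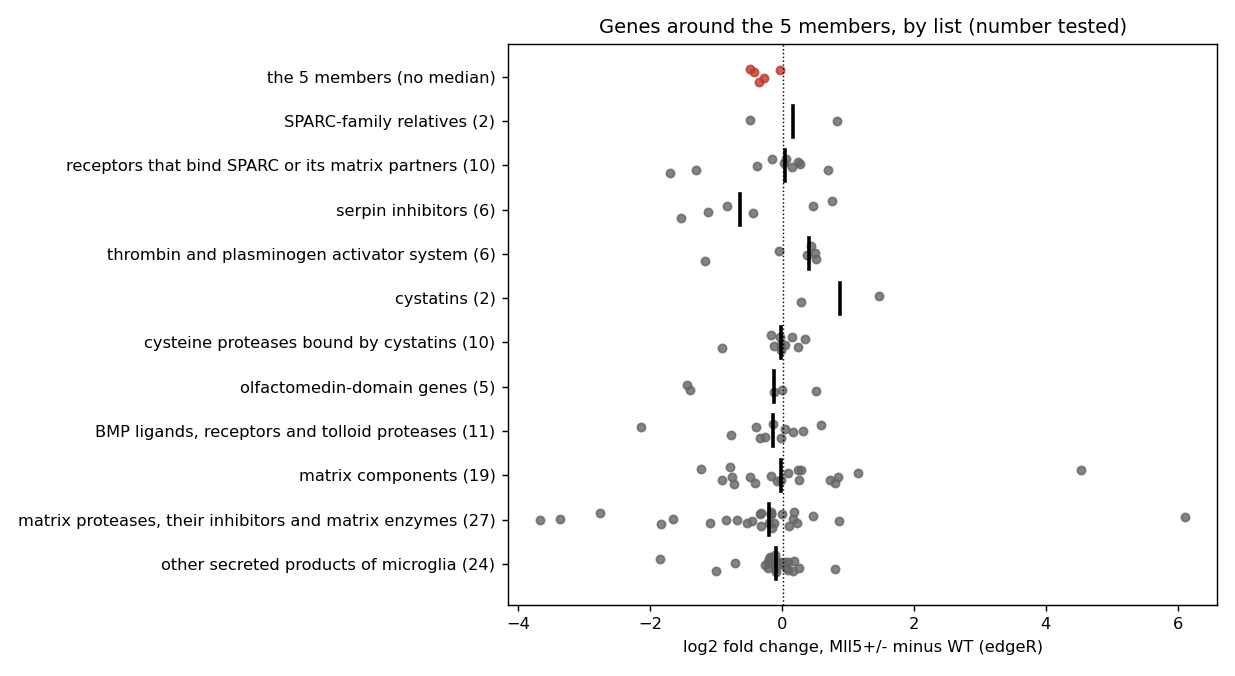
Log2 fold change (Mll5+/- minus WT, edgeR) of the 5 members (red) and of the tested genes of 11 lists of relatives and partners (grey, 1 row per list with the number tested); black bars are list medians and the dotted line is the median of all tested genes, 0.02. The members lie between -0.49 and -0.03, and the genes of low level spread much more widely.

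The genes with the most similar course over the 6 libraries were sought among 2937 other tested genes with a mean of at least 50 CPM. The measure was the root mean square (RMS) difference of log2(CPM + 0.5) after each gene was centred on its own mean, so that 0 is an identical course. For Sparc the nearest were Zfp780b, a zinc finger gene (RMS 0.073), Baz2b, a bromodomain gene (0.092), and Ggt5, a glutathione-cleaving enzyme gene (0.092), against a median of 0.432 over all candidates. Ggt5 had 124, 128 and 120.2 CPM under the WT label and 98.2, 75.8 and 96.7 CPM under the Mll5+/- label. For Serpine2 the nearest included Ppm1l (0.057) and Zmym2 (0.071). Zmym2 had 166, 157 and 169 CPM under the WT label and 134, 151 and 112 CPM under the Mll5+/- label.

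For Cst3 the nearest were Arf1, Atf4 and Jkamp (RMS from 0.072 to 0.113), and for Olfml3 they were Galnt2, Ahctf1 and Kmt2a (0.113 to 0.131). Kmt2a, a methyltransferase gene of the same family as Kmt2e, had 338, 316 and 349 CPM under the WT label and 333, 188 and 185 CPM under the Mll5+/- label, with the same split of the latter as Olfml3. For Ecscr the nearest were Nxf1, Mgat2 and Apoe (0.100 to 0.115). Apoe, the lipid carrier gene, had 334, 361 and 430.5 CPM under the WT label and 299, 440.4 and 464 CPM under the Mll5+/- label. With 6 libraries and so many candidates, near courses are to be found for most genes.

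None of the 5 genes was among the 3 nearest of another. The nearest pair was Serpine2 and Cst3 (RMS 0.220), with 200 of the candidates nearer to Serpine2 than Cst3 was and 145 nearer to Cst3 than Serpine2 was. For Sparc and Olfml3 (RMS 0.259), 252 candidates were nearer to Sparc and 125 nearer to Olfml3. Sparc and Serpine2, whose levels were both lower in all libraries labelled Mll5+/-, had an RMS difference of 0.288, with 417 candidates nearer to Sparc and 561 nearer to Serpine2. Olfml3 and Ecscr were the farthest apart (0.635), farther than the median of the candidates from either.

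**Figure D5:**
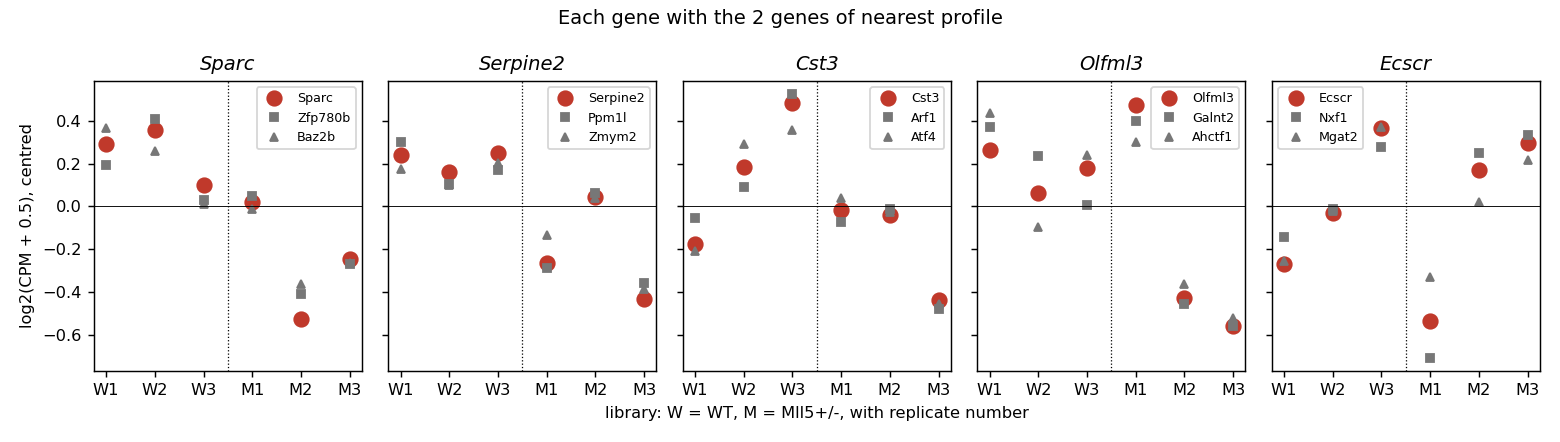
Centred log2(CPM + 0.5) in the 6 libraries (W for WT, M for Mll5+/-, with the replicate number) of each of the 5 genes (red) and of the 2 genes of nearest course (grey). Sparc is lowest in Mll5+/- replicate 2, Olfml3 in replicate 3 and Ecscr in replicate 1.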

How the data were processed

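Total RNA was taken up in TRIzol, per the labels' protocols, amplified as cDNA by the SMART-seq method and made into libraries with a transposase kit. The authors deposited whole-number counts per gene symbol, with gene coordinates on mm39. The submitters' processing notes name FastQC, STAR, StringTie and DESeq2. The sources used here do not give versions, the counting step or its strand setting.

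The 5 genes and all gene lists were chosen with earlier results of these data known. Genes were kept with filterByExpr by genotype (minimum count 10, minimum total 15), which removed 1049 of 11881, and libraries were scaled by TMM. Genotypes were compared by the quasi-likelihood F test of edgeR 4.0.16 with its robust option (R 4.3.3; alternatives with limma 3.58.1 and DESeq2 1.42.0), Benjamini-Hochberg adjusted over all tested genes, two-sided, with a threshold of 0.05. The fit was run on simulated counts with known fold changes. Recovery of these was checked only at a dispersion far below the fitted one. The check therefore does not show how the test performs at the spread of these libraries. The p-values of the F test weigh the difference between the genotypes against the spread between libraries of 1 genotype. No batch or date is labelled, so neither entered the model. The biological coefficient of variation was 80.4%. An SE is the fitted log2 fold change divided by the square root of F. Promoter windows of chromosome 18 were not used. For each list the 3 genes of highest mean CPM are named, and for each member the 3 genes of nearest course, except for a few that are not reported here. At these depths, 3 counts correspond to between 0.104 and 0.142 CPM. No molecular identifiers are named, so the counts include amplification copies. The alternatives were other size factors, filters and tools, and each library left out.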

Additional observations from a re-analysis of the deposited data

How the results depend on the processing

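The log2 fold changes of Sparc, Serpine2 and Cst3 stayed negative under every alternative tried, and so did that of Olfml3. With another normalization, filter or tool they ran from -0.54 to -0.46 for Sparc, from -0.44 to -0.38 for Serpine2, from -0.36 to -0.22 for Cst3 and from -0.28 to -0.24 for Olfml3, and from -0.05 to 0.00 for Ecscr. With 1 library left out, they ran from -0.65 to -0.37 for Sparc, from -0.58 to -0.33 for Serpine2, from -0.51 to -0.17 for Cst3, from -0.68 to -0.090 for Olfml3 and from -0.20 to 0.17 for Ecscr. The count of genes past the threshold was 0 in edgeR and 18 in DESeq2, and between 0 and 2 in edgeR with 1 library left out (1 without Mll5+/- replicate 2, 2 without WT replicate 1, WT replicate 2 or Mll5+/- replicate 3). The medians of the small lists were the least settled. With limma-voom and sample weights together, that of SPARC-family relatives was 1.53 (0.17 in the main fit), of serpins -2.03 and of olfactomedin-domain genes -0.94. With at least 50 counts in 3 libraries these 3 medians were -0.49, 0.016 and -0.76. That of the thrombin and plasminogen activator system was then 0.17. With 1 library left out, the serpin median ran from -1.86 to 0.29, that of the olfactomedin-domain genes from -1.04 to -0.079, that of the thrombin and plasminogen activator system from 0.15 to 0.81, that of matrix components from -0.18 to 0.54, that of the BMP genes from -0.33 to -0.10, that of the receptors from -0.15 to 0.20, that of other secreted products from -0.20 to 0.02, that of cysteine proteases from -0.16 to 0.11 and that of SPARC-family relatives from -0.44 to 0.72. The cause of these shifts was not tested. By counts per kilobase the median rank was 6 in place of 2 for Sparc, 3 in place of 13.5 for Cst3, 227 in place of 436.5 for Serpine2, 688 in place of 2054.5 for Ecscr and 1822.5 in place of 1188.5 for Olfml3. The labels give each animal its own number and no pairing, batch or date, so no paired analysis was run. Whether mice shared a litter or a sorting day is not known. Genes with a library at 0 counts sit near what the depth can show.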
